A study of Rattus norvegicus with 30 samples.

Results

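The 8 genes described here are the switch that senses sterols and sets cholesterol synthesis, and the genes that move cholesterol into and through the cell. They were chosen by symbol: Srebf2, Scap, Insig1, Insig2 and Mbtps1 as 5 sensors and regulators, and Mylip, Stard4 and Npc1l1 as 3 uptake and transfer genes. The choice was made with earlier results of these data known. All 8 have a row among the 17455 gene rows of the table, and 7 of them were among the 12547 rows with enough counts to test. Npc1l1 was too low to test. The RNA came from dorsal hippocampus of TgF344-AD rats, a transgenic model that carries mutated human transgenes, APP among them, under the mouse prion promoter, and from wildtype rats, with 15 libraries each. The 8 groups were male and female rats of the alzheimer and wildtype genotypes on a chow (standard) or a western diet. Each female western group had 3 libraries and every other group had 4. Libraries came from 2 cohorts, and every group held libraries of both. The question the design addresses is how the hippocampal transcriptome of this model differs by genotype and by diet. The ages of the rats, the composition of the diets and any pooling of animals were not stated in the labels or design text, and the labels do not say in words that each library is a separate animal, so p-values measure the spread between libraries.

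Depth was 13.9 to 31.4 M counts per library, with a median of 17.8 M. Levels are given as CPM, the counts of a gene per M counts of its library after scaling of library sizes. App, a check of the genotype labels, since reads of a human APP transgene may be counted there, was at 3294 ± 76.3 CPM (SD, n = 15) in alzheimer and 1672 ± 52.7 CPM (n = 15) in wildtype libraries, and no library overlapped the other genotype. All 12 neuron, 12 astrocyte and 12 oligodendrocyte markers on the lists used here were detected and tested.

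Cells make cholesterol from acetyl-CoA and also take it up. When membranes of the endoplasmic reticulum are poor in sterol, Scap escorts the precursor of SREBP2, which Srebf2 encodes, to the Golgi, where the site-1 protease encoded by Mbtps1 makes the first of the cuts that free the transcription factor. Insig proteins hold Scap and its cargo back when sterol is plentiful, and they also lead HMG-CoA reductase to degradation. Freed SREBP2 switches on genes of cholesterol synthesis and uptake, among them Insig1, Stard4 and its own gene, so the transcripts of some members are both parts and targets of the loop. In the adult brain, cholesterol is made locally because lipoproteins of the blood do not cross the barrier, and astrocytes supply much of it to neurons.

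SREBPs act on promoters through sterol regulatory elements, usually together with the general factors NF-Y and Sp1. The promoters of Srebf2, Insig1 and Insig2 are shown because these are the members with higher counts in alzheimer libraries that have an entry in the RefSeq promoter table (assembly GRCr8). The table holds 7 of the 8 members and no entry for Stard4. Each window runs from 250 bases before to 50 bases after the start of the gene, 5′ to 3′ on the gene's strand. Capitals mark the CCAAT box that NF-Y binds (CCAAT, or ATTGG on the other strand), the E-box CACGTG and a sterol element in the short form TCACCCCA.
Srebf2, chr7:115543057-115543356, plus strand: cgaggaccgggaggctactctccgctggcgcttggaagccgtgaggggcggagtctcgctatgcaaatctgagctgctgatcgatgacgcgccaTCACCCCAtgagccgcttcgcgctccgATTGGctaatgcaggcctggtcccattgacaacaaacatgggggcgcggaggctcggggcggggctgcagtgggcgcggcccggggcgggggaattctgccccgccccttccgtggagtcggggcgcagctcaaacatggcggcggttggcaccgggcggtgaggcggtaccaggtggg
Insig1, chr4:8057720-8058019, minus strand: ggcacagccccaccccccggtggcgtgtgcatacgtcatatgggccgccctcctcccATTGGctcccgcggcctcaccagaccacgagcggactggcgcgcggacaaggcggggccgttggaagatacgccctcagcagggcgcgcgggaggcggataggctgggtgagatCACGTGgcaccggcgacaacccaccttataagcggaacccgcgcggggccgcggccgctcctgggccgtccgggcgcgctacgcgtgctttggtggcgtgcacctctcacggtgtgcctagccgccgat
Insig2, chr13:35040049-35040348, minus strand: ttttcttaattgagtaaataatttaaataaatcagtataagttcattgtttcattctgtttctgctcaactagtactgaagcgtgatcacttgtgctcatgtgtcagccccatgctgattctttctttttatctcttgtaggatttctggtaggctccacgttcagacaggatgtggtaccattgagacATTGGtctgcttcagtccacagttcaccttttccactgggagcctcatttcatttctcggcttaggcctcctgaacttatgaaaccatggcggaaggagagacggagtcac

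The motif search covered both strands of the 7 windows and of all 27457 promoters in the table. The sterol element TCACNCCAC was in 0 of the 7 members and in 1.13% of all promoters. A shorter form, TCACCCCA, was added after the sequences were seen. Its letters overlap those of TCACNCCAC, and it was in 1 of the 7 members, Srebf2, where it starts 156 bases before the gene's start, and in 1.41% of all promoters. CCAAT was in 5 of the 7 (Srebf2, Insig1, Insig2, Mylip and Npc1l1) and in 37.7% of all promoters. The Sp1 box GGGCGG was in 5 of the 7 (all but Insig2 and Npc1l1) and in 34.9% of all. The E-box CACGTG, which SREBPs can also bind, was in 2 of the 7, Insig1 at 79 and Scap at 50 bases before the start, against 6.65% of all promoters. Of 18 promoters of cholesterol synthesis enzymes in the table, 14 held CCAAT and 15 held GGGCGG, while 0 held TCACNCCAC and 0 held TCACCCCA. A match describes letters in these windows and was not tied to any binding data. The Insig2 window held 42.0% G and C, against a median of 52.3% over all promoters. Whether its annotated start is the one used in hippocampus was not tested, so its matches may not lie in the active promoter.

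Srebf2, Insig1, Insig2 and Stard4 rose in alzheimer against wildtype libraries, while Scap, Mbtps1 and Mylip did not pass the test. A gene was called where its adjusted p (edgeR, Benjamini-Hochberg over the 12547 genes) was under 0.05. Thus 4 of 7 tested members were called as higher and 0 as lower, where 4.14% of all tested genes were called as higher for genotype, 3.89% as lower and 8.03% in either direction. Because the members were chosen with earlier results of these data known, this share and those of the members below are not independent tests. The members that rose include both the factor and its brakes, and the transfer protein Stard4 rose most. The median log2 fold change of the 7 members was 0.12, beside 0.0020 over all tested genes. In bulk tissue a difference in the number of cells of a type and a difference in RNA per cell cannot be told apart.

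**Figure D1:**
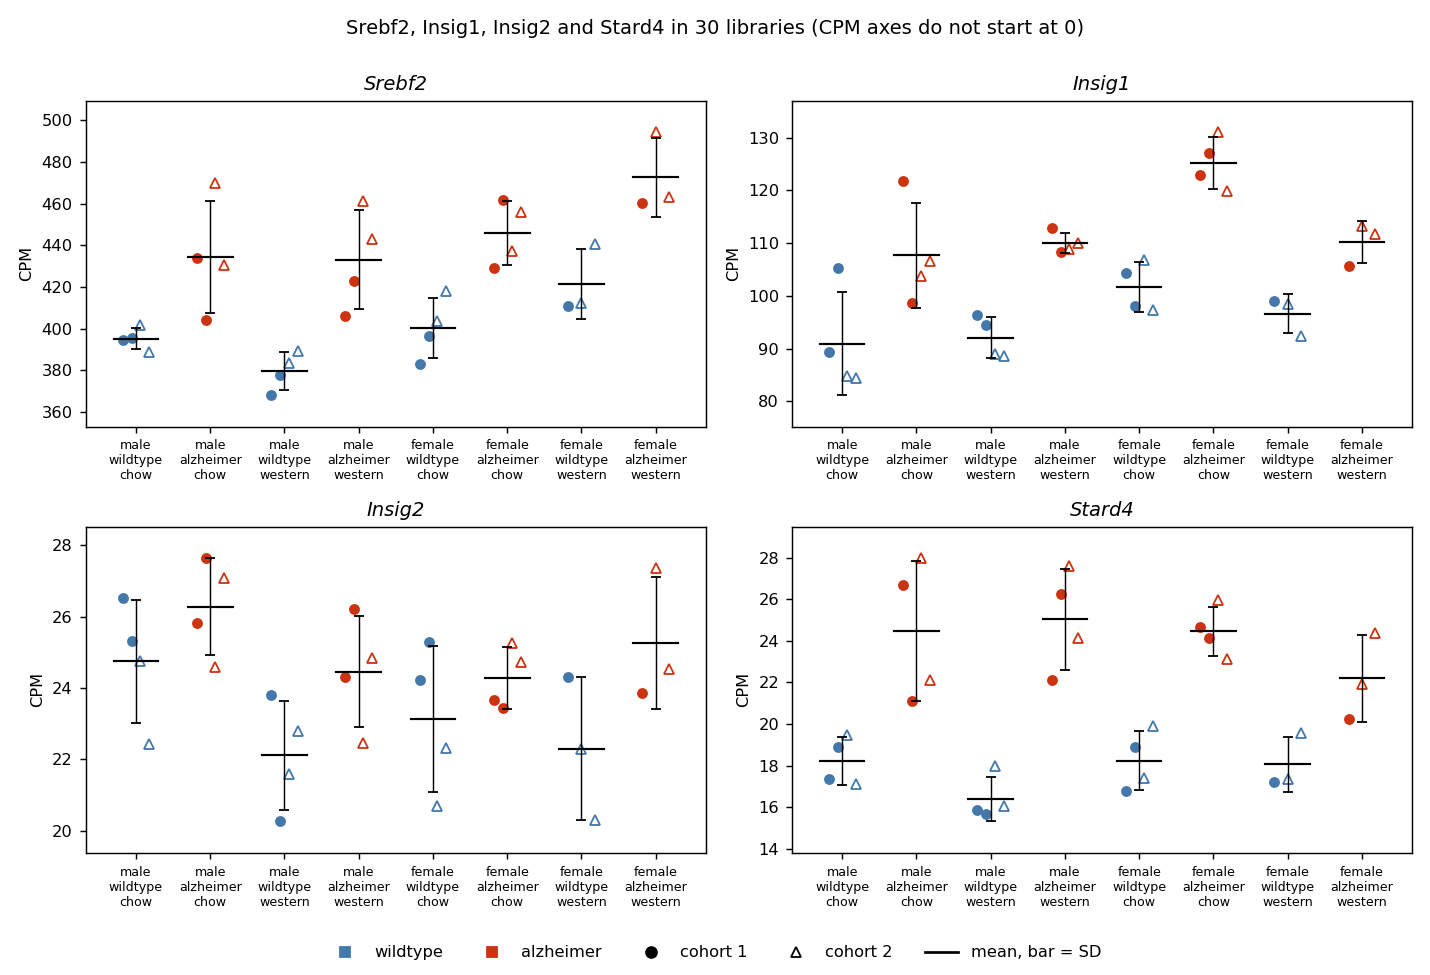
CPM (y axis, not starting at 0) of Srebf2, Insig1, Insig2 and Stard4 in each of the 30 libraries, in the 8 groups of sex, genotype and diet (x axis); filled circles are cohort 1, open triangles cohort 2, horizontal lines group means and bars SD. For Stard4 every red (alzheimer) point lies above every blue (wildtype) point, while the Insig2 points overlap.

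Srebf2, the gene of the transcription factor, ranged from 404 to 494 CPM in the 15 alzheimer libraries, with a median of 443, and from 368 to 441 CPM in the 15 wildtype libraries, with a median of 396. The ranges overlap, but 8 of the 15 alzheimer libraries were above the highest wildtype library, and all 15 were above the mean of wildtype libraries of their own sex and diet. The means were 445 ± 24.8 and 398 ± 18 CPM (SD, n = 15 each), a log2 fold change of 0.16 ± 0.019 (SE, adjusted p = 6.10e-07). In the order of group means, Srebf2 was lowest in male wildtype western libraries, at 368, 378, 384 and 389 CPM. It was highest in female alzheimer western libraries, at 460, 463 and 494 CPM. The 4 alzheimer groups were the 4 highest, with means from 433 ± 23.9 CPM (SD, n = 4) in western males to 473 ± 18.8 CPM (n = 3) in western females. The gap between the highest wildtype group, female western at 421 ± 16.8 CPM (n = 3), and the lowest alzheimer group was smaller than the SD within either.

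Scap, the escort and sterol sensor, was level between the genotypes. It ranged from 209 to 244 CPM with a median of 222 in alzheimer libraries and from 217 to 236 CPM with a median of 225 in wildtype libraries. Its log2 fold change was -0.018 ± 0.020 (SE, adjusted p = 0.668), with a 95% interval from -0.060 to 0.024, so that the interval leaves out a rise as large as the one fitted for Srebf2. No neighbouring pair of the 8 group means of Scap was separated by more than the larger SD of the pair.

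Mbtps1, the site-1 protease, also did not pass the test. It ranged from 118 to 138 CPM with a median of 127 in alzheimer libraries and from 116 to 134 CPM with a median of 130.1 in wildtype libraries. Its mean was 126 ± 5.54 CPM (SD, n = 15) in alzheimer and 129 ± 4.83 CPM (n = 15) in wildtype libraries, with a log2 fold change of -0.030 ± 0.024 (SE, adjusted p = 0.502) and a 95% interval from -0.079 to 0.019. Of the 15 alzheimer libraries, 11 were below the matching wildtype mean. Neighbouring group means of Mbtps1 were likewise all closer than the larger SD of each pair.

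Insig1, the Insig gene that SREBPs switch on, ranged from 98.5 to 131 CPM with a median of 112 in alzheimer libraries and from 84.3 to 107 CPM with a median of 96.3 in wildtype libraries. The 2 ranges overlap only in part: 11 of the 15 alzheimer libraries were above the highest wildtype library, and all 15 were above the matching wildtype mean. The means of 113 ± 9.17 and 95.2 ± 7.12 CPM (SD, n = 15 each) differed by a log2 fold change of 0.25 ± 0.029 (SE, adjusted p = 5.09e-07). The female alzheimer chow libraries, at 120, 123, 127 and 131 CPM, stood above the next group by 15 CPM, more than the SD within either group. The lowest group was male wildtype chow, at 84.3, 84.8, 89.4 and 105 CPM.

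Insig2, the second Insig gene, which is not known as an SREBP target, had a smaller rise. It ranged from 22.4 to 27.6 CPM with a median of 24.7 in alzheimer libraries and from 20.3 to 26.5 CPM with a median of 22.8 in wildtype libraries, and only 3 alzheimer libraries were above all wildtype libraries. The log2 fold change was 0.12 ± 0.037 (SE, adjusted p = 0.0399), higher than the matching wildtype mean in 14 of 15 libraries. This call is near the threshold: without the filter on low counts the adjusted p was 0.0571, without the cohort term it was 0.05001, in cohort 1 alone the log2 fold change was 0.033 with an adjusted p of 0.904, and leaving out any 1 of 14 libraries (replicates 5, 6, 15 to 22, 24 and 28 to 30) raised the adjusted p past 0.05, to at most 0.107. The ratio of Insig1 to Insig2 counts in a library was 4.55 ± 0.508 (SD, n = 15) in alzheimer and 4.14 ± 0.465 (n = 15) in wildtype libraries, with overlapping ranges of 3.57 to 5.43 and 3.37 to 5.16, and the difference in this ratio was not tested. The highest mean ratio was in female alzheimer chow libraries, at 5.16 ± 0.239 (n = 4), and the lowest in male wildtype chow libraries, at 3.68 ± 0.363 (n = 4).

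Among the uptake and transfer genes, Stard4, which encodes a soluble carrier that moves sterol between membranes, showed the largest change of the members. In alzheimer libraries it ranged from 20.2 to 28 CPM with a median of 24.1, and in wildtype libraries from 15.7 to 19.9 CPM with a median of 17.4. The genotypes did not overlap. Of all tested genes, 0.128% had every alzheimer library above every wildtype library. The means were 24.2 ± 2.39 and 17.7 ± 1.37 CPM (SD, n = 15 each), and the log2 fold change was 0.44 ± 0.044 (SE, adjusted p = 1.30e-08). The 4 wildtype groups had means from 16.4 to 18.2 CPM and the 4 alzheimer groups from 22.2 to 25 CPM, a gap that exceeds the SD within the groups on both sides of it. The closest libraries across the gap were a female wildtype chow library at 19.9 CPM and a female alzheimer western library at 20.2 CPM.

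Mylip encodes an E3 ubiquitin ligase that marks lipoprotein receptors for degradation and is a target of the oxysterol receptor LXR. It ranged from 31.1 to 45.1 CPM with a median of 39.2 in alzheimer libraries and from 28.2 to 42.7 CPM with a median also of 39.2 in wildtype libraries. The log2 fold change was 0.049 ± 0.049 (SE, adjusted p = 0.616), with a 95% interval from -0.053 to 0.15, and 9 of 15 alzheimer libraries were above the matching wildtype mean. Npc1l1, the sterol transporter of the gut lining, had 3 counts in all over 550.8 M, in 2 of the 30 libraries. Pooled over the libraries this is 0.00545 CPM (exact Poisson 95% interval 0.00112 to 0.0159, which covers counting error only), and a count of 0 allows up to 3 counts, or 0.0948 to 0.216 CPM, in 1 library. No difference in Npc1l1 was detectable at this depth.

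**Figure D2:**
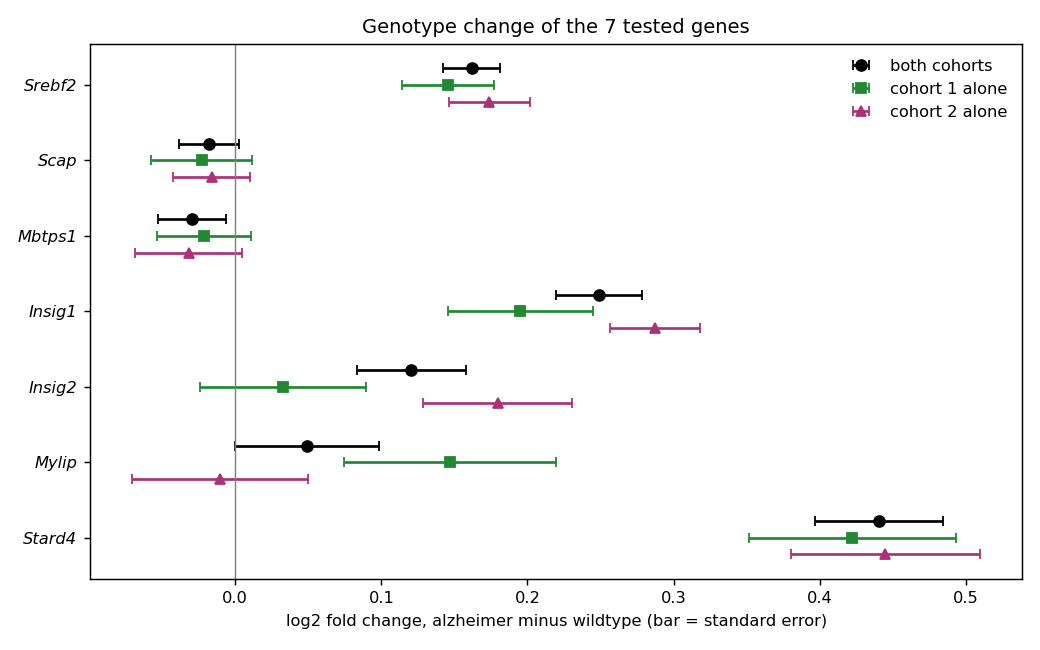
Log2 fold change of alzheimer against wildtype libraries (x axis) for the 7 tested genes (y axis), in both cohorts together and in each alone; bars are standard errors. Stard4 and Srebf2 lie at nearly the same place in each cohort, while Insig2 is near 0 in cohort 1.

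The genotype differences were also taken within each diet and each sex. Srebf2, Insig1 and Stard4 rose in each of these 4 subsets, and Insig2 passed in none. On chow 3 of 7 members were called as higher, where 0.542% of all tested genes were. On the western diet it was 3 of 7 against 1.51%, in males 3 of 7 against 0.685%, and in females 3 of 7 against 1.24%. Srebf2 had a log2 fold change of 0.15 ± 0.026 (SE) on chow and 0.18 ± 0.029 on the western diet. For Insig1 the values were 0.27 ± 0.040 on chow and 0.22 ± 0.043 on the western diet. For Insig2 they were 0.077 ± 0.051 on chow (adjusted p = 0.620) and 0.16 ± 0.055 on the western diet (adjusted p = 0.0924).

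Stard4 had log2 fold changes of 0.52 ± 0.060 (SE) in males and 0.36 ± 0.064 in females. The difference between the sexes, -0.16 ± 0.088, did not pass (adjusted p = 0.999), with a 95% interval from -0.34 to 0.024. In males the 8 alzheimer libraries spanned 21.1 to 28 CPM and in females the 7 spanned 20.2 to 26 CPM. Srebf2 rose by 0.16 ± 0.026 in males and 0.16 ± 0.029 in females, and Insig1 by 0.25 ± 0.040 and 0.25 ± 0.043. No member passed for the interaction of genotype with diet or of genotype with sex, where edgeR called 0% and 0% of all tested genes. The members had 0 of 7 at an unadjusted p under 0.05 in both interactions, with edgeR, DESeq2 and limma-voom. Over all tested genes edgeR had 446 and 528 at an unadjusted p under 0.05, and DESeq2 and limma-voom called 0 in both.

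Each cohort alone gave the same direction for Srebf2, Insig1, Insig2 and Stard4. Stard4 had a log2 fold change of 0.42 (adjusted p = 0.00481) in cohort 1 and 0.44 (adjusted p = 0.000612) in cohort 2. Srebf2 had 0.15 (adjusted p = 0.0416) and 0.17 (adjusted p = 0.00114). Insig1 had 0.20 in cohort 1, where it did not pass (adjusted p = 0.105), and 0.29 in cohort 2 (adjusted p = 1.82e-05). Insig2 passed in cohort 2 (0.18, adjusted p = 0.0495) but not in cohort 1. In cohort 1 each female western group is a single library, which is assumed there to vary like the other groups. Whether Insig1 or Insig2 differed between the cohorts in their genotype change was not tested.

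Between the sexes, Srebf2 and Insig1 were higher in female libraries and the other 5 tested members did not pass. Thus 2 of 7 members were called as higher in females, where 0.518% of all tested genes were. Srebf2 ranged from 383 to 494 CPM with a median of 433 in the 14 female libraries and from 368 to 470 CPM with a median of 403 in the 16 male libraries. The ranges overlap widely, and 12 of 14 female libraries were above the matching male mean. Its log2 fold change was 0.078 ± 0.020 (SE, adjusted p = 0.0452). Insig1 ranged from 92.3 to 131 CPM with a median of 106 in females and from 84.3 to 122 CPM with a median of 101 in males, with 13 of 14 female libraries above the matching male mean. Its log2 fold change was 0.12 ± 0.030 (SE, adjusted p = 0.0493).

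Both sex calls of Srebf2 and Insig1 rest on the edge of the threshold. DESeq2 and limma-voom also called both genes for sex. With median-of-ratios size factors in edgeR 0 members were called for sex (adjusted p = 0.0507 for both). With 1 library left out, both calls held only when it was replicate 5, out of 30. Several lists of cell type markers had medians above 0 between the sexes as well. The median log2 fold change was 0.34 for 9 choroid plexus and ependyma markers, 0.11 for 12 oligodendrocyte, 0.099 for 9 pericyte, smooth muscle and meningeal, and 0.069 for 10 microglia markers, all 10 of which were above 0. None of these markers passed for sex, while 1 of 12 astrocyte markers did (Sox9, at 0.24). Without the 3 libraries highest in choroid plexus and ependyma markers, 0 members were called for sex. The adjusted p was then 0.177 for Srebf2 and 0.0682 for Insig1, with log2 fold changes of 0.071 and 0.13. The part of the other cell types in the sex difference was not tested.

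No member passed for the western diet. Over both genotypes and sexes 0 of 7 members were called by edgeR, DESeq2 or limma-voom, and 0 had an unadjusted p under 0.05, where edgeR called 0.00797% of all tested genes. The log2 fold changes of the 7 members ran from -0.077 ± 0.044 (SE) for Stard4 (adjusted p = 0.929) to 0.045 ± 0.049 for Mylip (adjusted p = 0.960). Stard4 was below the matching chow mean in 11 of 14 western libraries, and so was Insig2 (log2 fold change -0.060 ± 0.037, adjusted p = 0.930). Srebf2 had a 95% interval from -0.022 to 0.059 for the diet. Within wildtype rats 0 of 7 members were called for diet, beside 0% of all tested genes, and within alzheimer rats again 0 of 7, beside 0%. With an unadjusted p under 0.05, edgeR had 653 and 488 of all genes in these subsets. DESeq2 called 0 and 2 of them and limma-voom 0 and 0, none of them a member.

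**Figure D3:**
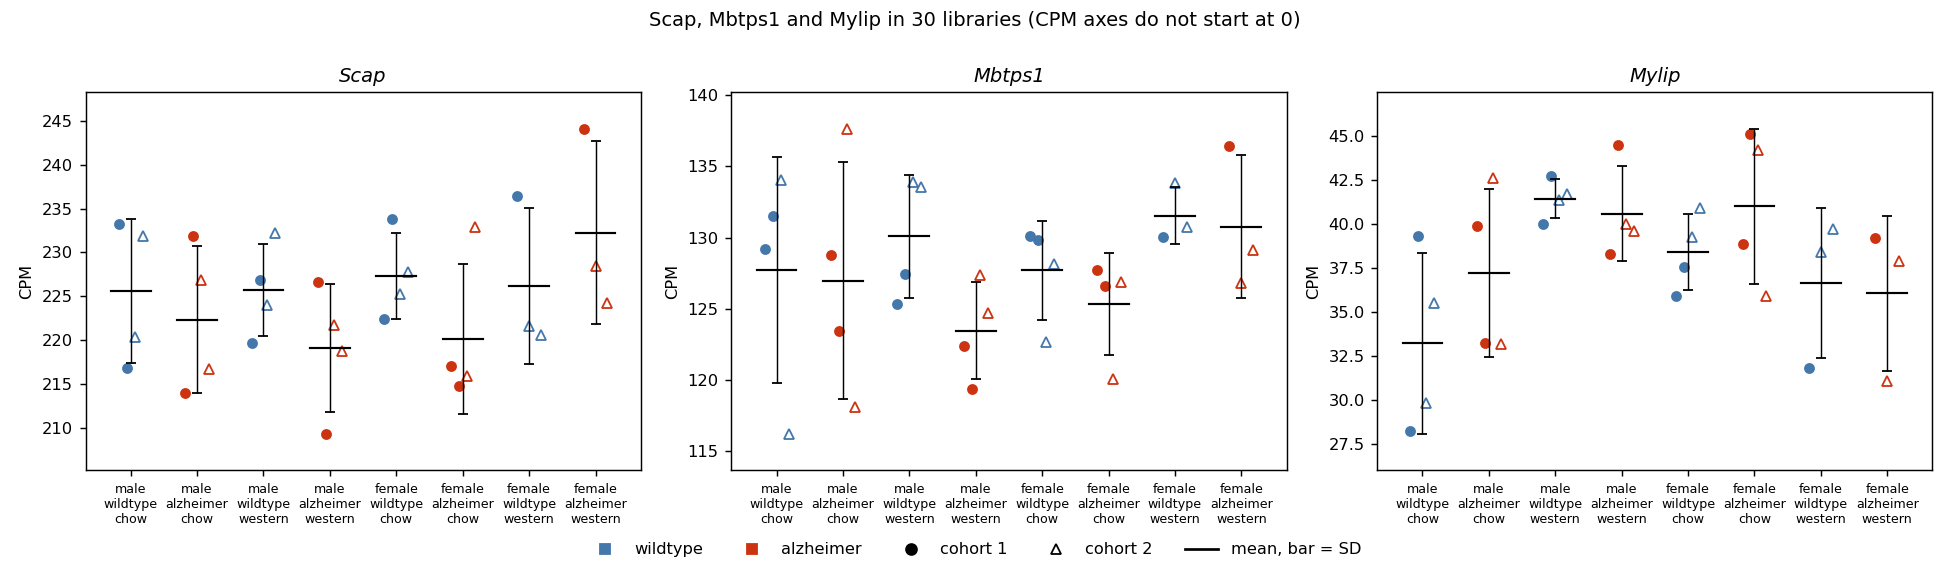
CPM (y axis, not starting at 0) of Scap, Mbtps1 and Mylip in the 30 libraries by group (x axis), with cohort, mean and SD marked as circles or triangles, lines and bars. For Mylip the male western groups, with means of 41.4 CPM in wildtype and 40.6 CPM in alzheimer, lie above the male chow groups, while the female western groups lie below the female chow groups.

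The diet values of some members pointed apart in the sexes. Mylip had a mean of 35.2 ± 5.05 CPM (SD, n = 8) in chow males and 41.0 ± 1.96 CPM (n = 8) in western males, and all 8 western males were above the matching chow mean. In females it had 39.7 ± 3.48 CPM (n = 8) on chow and 36.4 ± 3.87 CPM (n = 6) on the western diet, with 4 of 6 western females below. The log2 fold change for diet was 0.22 ± 0.067 (SE) in males (adjusted p = 0.185) and -0.13 ± 0.072 in females (adjusted p = 0.582). The difference of these was -0.35 ± 0.099, with an unadjusted p of 0.00131 that missed the threshold after adjustment (edgeR adjusted p = 0.0696). DESeq2 called it (adjusted p = 0.0369), as did edgeR with all genes of at least 1 count (adjusted p = 0.01999), while limma-voom did not (adjusted p = 0.0606). It was -0.39 in cohort 1 alone and -0.33 in cohort 2 alone, and leaving out replicate 7 or replicate 25 moved it past the threshold.

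By edgeR 0 of 7 members were called for the difference of diet between the sexes, beside 1.23% of all tested genes, and 3 of 7 had an unadjusted p under 0.05. Besides Mylip these were Srebf2 and Insig1. Srebf2 had a diet log2 fold change of -0.031 ± 0.026 (SE) in males and 0.069 ± 0.029 in females, and all 6 western females were above the matching chow mean (difference 0.10 ± 0.039, adjusted p = 0.214). Insig1 had 0.025 ± 0.040 in males and -0.12 ± 0.043 in females, where all 6 western females were below (difference -0.14 ± 0.059, adjusted p = 0.239). In females, then, the factor and its feedback target had diet values of opposite sign. Insig2 had -0.13 ± 0.051 in males, with all 8 western males below the matching mean, and 0.013 ± 0.055 in females (difference 0.15 ± 0.075, adjusted p = 0.363). Markers of some cell types also had diet values that pointed apart in the sexes. For 12 oligodendrocyte markers the median diet log2 fold change was 0.13 in males and -0.095 in females, and all 12 had a difference below 0, from -0.38 to -0.088, with 0 called. For 8 endothelial markers the medians were 0.077 and -0.12, and 1 was called (Cldn5, difference -0.26). Of 12 astrocyte markers 1 was called (Sox9, -0.49), but the differences ran from -0.49 to 0.33, with a median of -0.014. Of 10 microglia markers 1 was called (P2ry12, -0.46), and the differences ran from -0.46 to 0.28, with a median of -0.16. The part of these cell types in the values of Mylip, Srebf2, Insig1 and Insig2 was not tested. Within one sex no member passed: 0 of 7 in males, beside 0.128% of all tested genes, and 0 of 7 in females, beside 0.183%, with 2 members at an unadjusted p under 0.05 in each sex and 0 called by DESeq2 or limma-voom.

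The genes around the loop were taken by list, with lists that were chosen with earlier results of these data known. Of all tested genes, 4.14% were called as higher for genotype and 3.89% as lower. Of 23 enzymes of cholesterol synthesis, the classical SREBP2 targets, 16 rose and 0 fell, with a median log2 fold change of 0.18. Among them Acat2, which starts the pathway from acetyl-CoA, rose by 0.37 ± 0.036 (SE) and Fdft1, squalene synthase, by 0.36 ± 0.024. The rises of Srebf2 (0.16) and Insig2 (0.12) were below that median, and those of Insig1 (0.25) and Stard4 (0.44) above it. Of 14 other tested genes of SREBP processing and sterol-regulated degradation, 2 rose and 0 fell, with a median of 0.015. These were Sec23a, a subunit of the coat that buds vesicles from the endoplasmic reticulum, at 0.13 ± 0.025, and Pgrmc1, a heme-binding membrane protein of sterol metabolism, at 0.057 ± 0.018. The other 12 of the 14 did not pass, as Scap and Mbtps1 did not.

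Of 15 genes of the LXR and oxysterol response, the pathway that also drives Mylip, 0 rose and 1 fell, with a median of 0.016, beside 3.89% of all tested genes called as lower. The gene that fell was Cyp46a1, the neuronal enzyme that turns cholesterol into an oxysterol that can leave the brain, with a log2 fold change of -0.094 ± 0.022 (SE, adjusted p = 0.00476). Of 21 tested genes of cholesterol uptake, transfer and storage besides the members, 1 rose and 2 fell, with a median of -0.0042 and values from -0.28 to 0.38, beside 8.03% of all tested genes called in either direction. Those that fell were the lipoprotein components Apoc1, at -0.28 ± 0.039, and Apoe, at -0.12 ± 0.025. The other 18 of the 21 did not pass. For diet and for sex 0 genes of these 4 lists were called.

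**Figure D4:**
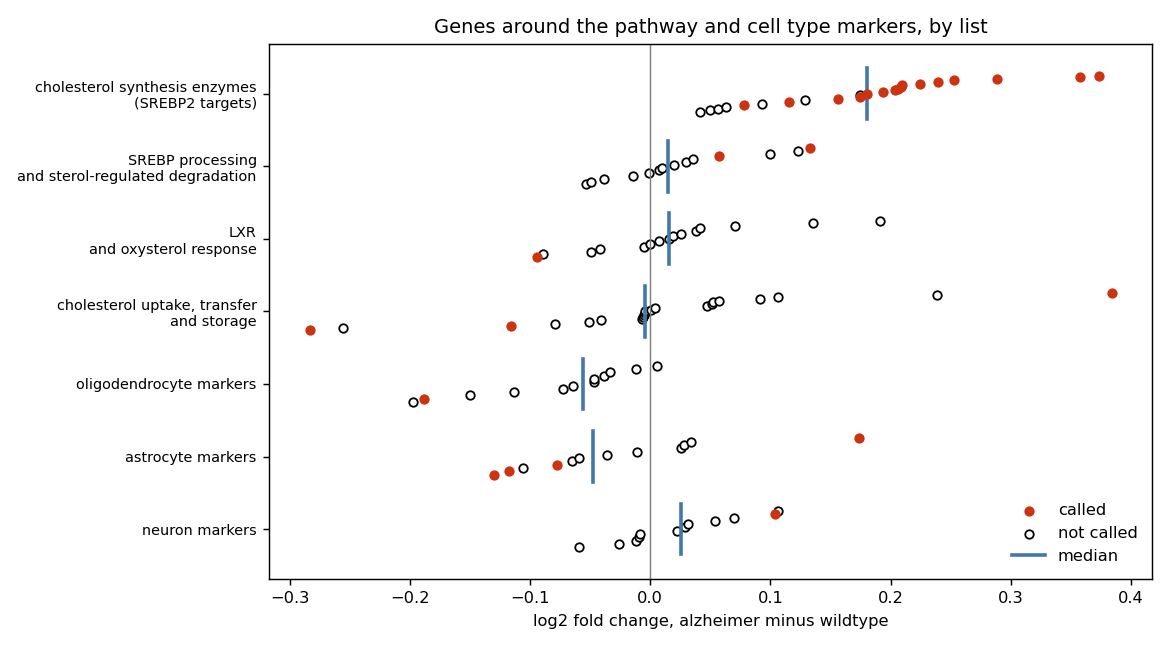
Log2 fold change of alzheimer against wildtype libraries (x axis) for each tested gene of 4 lists around the sterol loop and 3 lists of cell type markers (y axis); filled points passed the test, open points did not, and the blue line is the list's median. The synthesis enzymes lie to the right of 0, while the other lists straddle it. The oligodendrocyte markers do so only barely, from -0.20 to 0.0055.

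Some markers of cell types also passed for genotype. Over all tested genes, 4.14% were called as higher for genotype and 3.89% as lower. Of 12 astrocyte markers 1 rose (Gfap, at 0.17) and 3 fell, with a median of -0.048 and values from -0.13 to 0.17. Of 12 oligodendrocyte markers 0 rose and 1 fell (Mbp, at -0.19), with a median of -0.056. For 12 neuron markers 1 rose and 0 fell (median 0.025), and for 10 microglia markers 0 rose and 5 fell (median -0.11). Of 8 endothelial markers 0 rose and 2 fell, with a median of -0.089 and all 8 below 0, and of 9 pericyte, smooth muscle and meningeal markers 0 rose and 2 fell, with a median of -0.090. The summed level of the oligodendrocyte markers ranged from 8493 to 13920 CPM in alzheimer and from 8576 to 15299 CPM in wildtype libraries, and that of the astrocyte markers from 5294 to 6179 and from 5107 to 6138 CPM. The neuron markers summed to between 11467 and 12687 CPM in alzheimer and between 11302 and 12651 CPM in wildtype libraries. The microglia markers summed to between 419 and 511 CPM in alzheimer and between 444 and 566 CPM in wildtype libraries. All these ranges overlap, but the means were not equal. For microglia markers the alzheimer mean was 482 ± 23.2 CPM, against 516 ± 33.3 CPM for wildtype (SD, n = 15 each). In the same order, oligodendrocyte markers had 11697 ± 1567 against 12786 ± 1827 CPM. Astrocyte markers had 5686 ± 242 against 5749 ± 308 CPM. Neuron markers went the other way, at 12020 ± 359 against 11868 ± 346 CPM. The differences in these sums were not tested. The part of the cell makeup in the rise of Srebf2, Insig1, Insig2 and Stard4 was not tested. Without the 3 libraries highest in choroid plexus and ependyma markers the log2 fold changes were 0.17 for Srebf2, 0.26 for Insig1, 0.13 for Insig2 and 0.47 for Stard4, and all 4 passed.

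Within groups the members did not all vary together. After the means of group and cohort were removed from log2 CPM, 7 of the 21 pairs had a Benjamini-Hochberg adjusted p under 0.05 for Pearson's r (two-sided permutation test with 100000 draws, n = 30). All pairs come from the same libraries and share their depth and composition. The 30 residuals also have only 21 degrees of freedom, which makes these p-values somewhat too small. Srebf2 and Stard4 varied together (r = 0.53, Spearman's rho = 0.52, permutation p = 0.00245 and 0.00367, adjusted p = 0.0225 and 0.0304), and r was 0.49 without the 2 libraries farthest from the median of Srebf2. Mylip and Stard4 did so too (r = 0.50, rho = 0.51, permutation p = 0.00535 and 0.00437, adjusted p = 0.0225 and 0.0304, and r = 0.48 without the 2 farthest). The pair Scap and Insig1, which bind each other as proteins, varied in opposite directions (r = -0.56, rho = -0.49, permutation p = 0.00121 and 0.00579, adjusted p = 0.0225 and 0.0304, and r = -0.52 without the 2 farthest). Insig2 and Mylip did as well (r = -0.53, rho = -0.50, permutation p = 0.00322 and 0.00494, adjusted p = 0.0225 and 0.0304, and r = -0.55 without the 2 farthest).

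The other 3 pairs past the threshold were Srebf2 with Mbtps1 (r = 0.50), Mbtps1 with Stard4 (r = 0.45) and Scap with Stard4 (r = -0.44). In that order the adjusted p for Spearman's rho was 0.1105, 0.1443 and 0.0491, and r was 0.41, 0.30 and -0.365 without the 2 farthest. These 3 pairs no longer passed when only the group means were removed, so 4 of 21 pairs did then by Pearson's r. By Spearman's rho 2 of those 4, Scap with Insig1 and Mylip with Stard4, had an adjusted p of 0.0672 in that case. Srebf2 and Insig1, factor and feedback target, had r = 0.11 (rho = 0.024, permutation p = 0.562 and 0.901, adjusted p = 0.738 and 0.901, and r = 0.16 without the 2 farthest). The 2 Insig genes had r = 0.017 (rho = 0.091, permutation p = 0.928 and 0.629, adjusted p = 0.948 and 0.778, and r = 0.088 without the 2 farthest). Of the 6 pairs among the 4 members that rose, Srebf2 with Stard4 was the 1 that passed.

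**Figure D5:**
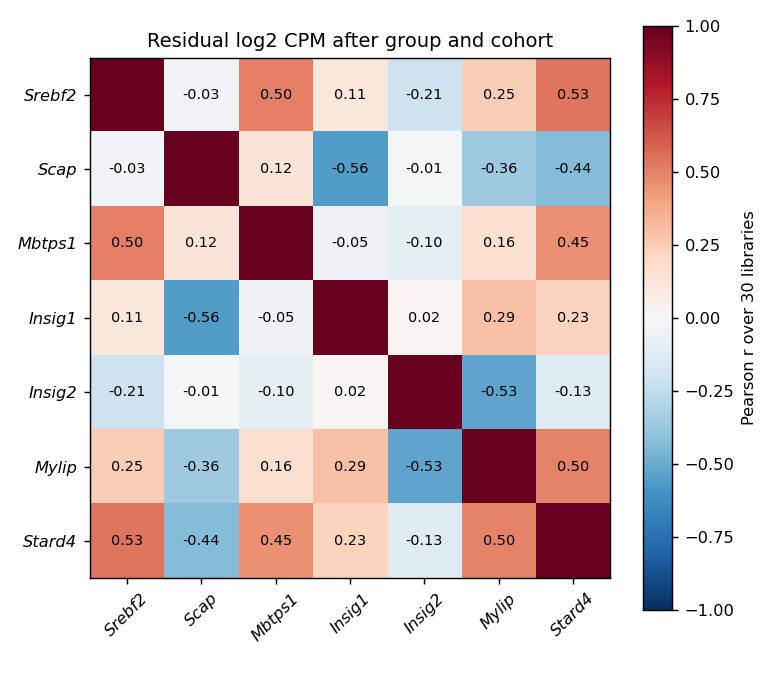
Pearson's r over 30 libraries between the residual log2 CPM of each pair of the 7 tested genes (both axes), after the means of group and cohort were removed; red is positive and blue negative. Stard4 is positive with Srebf2 (0.53) and Mylip (0.50), and Scap is negative with Insig1 (-0.56).

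The genes most like each member that rose were taken by Pearson's r of log2 CPM over the 30 libraries, as a description. In such values the genotype difference itself enters, so r after removal of group and cohort is given beside it. Among the genes most like Insig1 were the cholesterol synthesis enzymes Fdft1 (r = 0.85, 0.60 after removal), Hmgcs1 (0.82, 0.62), Sqle (0.82, 0.44) and Acat2 (0.82, 0.51). Stard4 was most like App (0.87, 0.14 after removal), Abracl (0.87, 0.18), Sh3glb2 (0.86, -0.26), Tspyl2 (0.86, 0.026) and Galnt5 (0.85, 0.24), genes that differ by genotype and with which it shared little within groups. Among the genes most like Srebf2 were Akap13 (0.84, 0.61 after removal), Rims1 (0.82, 0.36), Dlgap2 (0.80, 0.51) and Ppfia4 (0.79, 0.40), of which Rims1 and Ppfia4 encode proteins of the presynaptic terminal. Insig2 was most like Cited2 (0.71, 0.50 after removal), Ap1b1 (0.71, 0.69), RGD1562310 (0.70, 0.39), Sh3bp5 (0.69, 0.67) and Slc24a4 (0.67, 0.63). After removal, the highest r was 0.80 for Insig1, 0.85 for Stard4, 0.80 for Srebf2 and 0.74 for Insig2, each with a gene not named here. None of the genes named here was among the 5 most like more than 1 of these members.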

How the data were processed

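As deposited by the authors, values are unscaled whole-number counts by gene symbol for 30 libraries of snap-frozen dorsal hippocampus (polyadenylated RNA, NEB Ultra II, per the labels). Per the submitters' processing notes, cutadapt (no version) and STAR 2.7.0a were used. Not given in the sources used here: how reads were counted, with which strand, build and annotation. Hence reads of a gene and of an antisense partner cannot be told apart. The fit used edgeR 4.0.16 (R 4.3.3; filterByExpr with minimum count 10 and minimum total 15, TMM scaling, 1 coefficient per group and 1 for cohort, two-sided quasi-likelihood F test, 14 contrasts). Each contrast was adjusted over 12547 genes, and SE is the change over the root of F. DESeq2 1.42.0, limma 3.58.1 (voom), other scalings and filters, each cohort alone and each library left out were alternatives. The calculation was tested on simulated data. Over 42 pairs of replicates, counts differed by 2.98 to 10.9 times the sampling variance, so no library was taken as a duplicate. The members, gene lists and tests were chosen with earlier results of these data known. The genes named besides the members are the called genes of each list (at most 10 per contrast, of which some are given by count alone), the 5 most like each member called for genotype, and App. Some genes that this rule takes in are not reported here.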

Additional observations from a re-analysis of the deposited data

Results flagged for a closer look

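Within groups of 4 libraries, 42 sets of values (7 members in 6 groups) were searched for a single library far from the other 3, and 3 had one. Chance gives about 1 in 20. Scap in female alzheimer chow replicate 19 was at 232.9 CPM, against 215 to 217 CPM in the other 3 libraries. Mbtps1 in female alzheimer chow replicate 16 was at 120.0 CPM, against 127 to 128 CPM. Stard4 in male wildtype western replicate 24 was at 17.97 CPM, against 15.7 to 16.1 CPM, and still below every alzheimer library. By edgeR as described, no member passed a test for a genotype change that differs between diets or sexes, or for a diet change that differs between the sexes. For the last of these, DESeq2 and edgeR without the filter on low counts called Mylip, as did edgeR without replicate 7 or 25.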

How the results depend on the processing

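Stard4 and Srebf2 kept their genotype call under all 39 alternatives, with log2 fold changes of 0.42 to 0.47 and 0.15 to 0.17. Insig1 lost it in cohort 1 alone, and Insig2 lost it without the filter, with no cohort term, in cohort 1 alone and on leaving out any 1 of 14 libraries. Members called for genotype were 2 of 7 in cohort 1 alone, and over all genes 72 were called in cohort 1 and 573 in cohort 2, against 1007. On chow the members called were 0 in cohort 1 and 1 in cohort 2, on the western diet 0 in cohort 1, in males 1 in cohort 1, and in females 0 in cohort 1 and 1 in cohort 2; these have fewer libraries. For sex, 0 members were called with median-of-ratios size factors, with no cohort term, in cohort 1 and without the 3 libraries highest in choroid plexus markers (chosen after seeing the data), 1 in cohort 2, and 0 to 2 with 1 library left out. Over all genes sex gave 254 calls without the filter, 234 with DESeq2, 17 in cohort 2, 23 without those 3 libraries and 19 to 181 with 1 library left out, against 105. Diet gave 19 in cohort 1, 0 in cohort 2, 0 without those 3 libraries and 1 to 2 with 1 library left out, against 1. For the difference of diet between the sexes, 1 member (Mylip) was called without the filter and 1 with DESeq2, and 0 to 1 with 1 library left out. With group alone removed, 4 pairs of members passed, against 7. Small values that never passed changed sign: Mylip for genotype in cohort 2 (-0.010), Scap for diet in cohort 2 (-0.0035) and without those 3 libraries (-0.0012), Mbtps1 for diet in cohort 1 (-0.0023) and for sex in cohort 2 (-0.0090), Mylip for sex in cohort 2 (0.018) and from -0.023 to 0.023 with 1 library left out, and Stard4 for sex from -0.029 to 0.0023. Apart from the fewer libraries named, the cause of these changes was not tested. No paired analysis was possible because the labels' running numbers are not shared between groups. The depth of 13.9 M counts or more does not reach Npc1l1.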
